A study of Bos taurus with 42 samples.

Results

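*ETS2* (ENSBTAG00000009214), *ELK3* (ENSBTAG00000001509) and *ELF4* (ENSBTAG00000019061) were followed across 42 RNA-Seq libraries of bovine fetal cerebrum, liver and hind limb muscle. They are 3 of the 22664 genes of the deposited count table. The genes were selected on the diet contrast of the same libraries. The study's supplementary tables list *ETS2* as a key transcription factor (TF) in cerebrum and muscle, *ELK3* as a key TF in muscle, and *ELF4* among the differentially co-expressed pairs of muscle. For those gene and tissue combinations the diet values and the relations within a tissue are therefore given as a description with no test. Tests are kept for the tissues, the sexes and the remaining diet values and relations. In the RefSeq gene table of the ARS-UCD2.0 assembly all 3 are protein-coding genes, *ETS2* on chromosome 1, *ELK3* on chromosome 5 and *ELF4* on chromosome X.

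ETS factors share a winged helix-turn-helix domain that binds DNA at a short purine-rich core, and members differ in the cells that express them and in the signals they answer. *ETS2* is activated when kinases of the RAS to ERK cascade phosphorylate it. *ELK3* is a ternary complex factor, which binds beside the serum response factor SRF and represses its targets until ERK phosphorylates it. It is well known from the endothelium of the embryo. *ELF4* is an activator of the ELF subfamily, known mainly from leukocytes and blood stem cells, where it takes part in innate immunity and in the control of quiescence.

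The fetuses were collected at day 50 of gestation from Angus-cross heifers that had been bred to 1 sire. Control dams (CON, 7 fetuses, 6 male and 1 female) received 100% of their requirement from breeding onwards, and restricted dams (RES, 7 fetuses, 5 male and 2 female) received 60% of that amount. Each fetus gave 1 library per tissue, so that 14 fetuses stand behind each tissue and the 3 libraries of a fetus are not independent. Fetuses are named here by diet and number (RES 1, CON 73). Total counts ranged from 4145093 to 7576159 in cerebrum, from 6658218 to 12741299 in liver and from 5384018 to 7592149 in muscle. Levels are counts-per-million (CPM) of the library size after TMM scaling, in which a factor for each library sets the bulk of the genes level between libraries. The factors ran from 0.746 to 1.43 in cerebrum, from 0.189 to 0.816 in liver and from 1.19 to 1.38 in muscle, so that a liver level is higher than the same count per library total would give. Levels depend on gene length and are not compared between genes.

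Each tissue carried its defining markers, but some libraries stood apart. The 4 liver markers with a symbol summed to at least 86645 CPM in every liver library, and the 5 muscle markers to at least 881 CPM in every muscle library. The cerebrum library of RES 1 held 5872 CPM of the liver markers, of which 5632 CPM was *TTR*, a transport protein gene that the choroid plexus also expresses, against at most 1149 CPM in the other 13. The same library held the highest sums of endothelial (185 against at most 74.9 CPM), macrophage and leukocyte (144 against 42.6), erythroid (87.1 against 38.1) and muscle markers (99.5 against 9.98). Its sum of limb mesenchyme, cartilage and skin markers was also the highest (31.3 against 17.8). Mitochondrial genes took 14.7% of its counts, against at most 6.89% in the other 13. The cerebrum library of CON 23 stood apart as well, with a TMM factor of 0.746 against 1.05 in RES 1 and at least 1.27 in the other 12. Its 10 most abundant genes took 13.4% of the counts, against 15.1% in RES 1 and at most 7.64% in the other 12, and it had the next highest macrophage and leukocyte sum, 42.6 CPM. In liver the mitochondrial share of the counts ran from 4.04% to 67.7%, with RES 1 at the top, followed by CON 2 at 44.9%, RES 6 at 35.6% and RES 33 at 30.5%. In muscle the summed muscle markers ran from 881 CPM in RES 25 to 6795 CPM in RES 6. Values without RES 1 or another fetus are given beside the results they moved most.

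*ELF4* was scarce in cerebrum and abundant in liver and muscle, *ELK3* was abundant in muscle alone, and *ETS2* was present in all 3 tissues, with its highest TMM-scaled level in liver. Comparisons with liver depend on the scaling. With library totals in place of TMM-scaled sizes the median over all genes moved from -0.17 to -1.20 for liver against cerebrum and from -0.21 to -1.23 for liver against muscle, while that for muscle against cerebrum was -0.06 and -0.07. Of all genes tested, 83.6% were called between liver and cerebrum, 68.1% between muscle and cerebrum, and 82% between liver and muscle, so that a call by itself says little about a single gene. The tissue comparisons share libraries and are not independent of each other. In bulk tissue, fewer cells of an expressing type and less RNA per cell cannot be told apart.

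*ELF4* ranged from 0.599 to 7.42 CPM in the 14 cerebrum libraries (median 1.77), which corresponds to 5 to 59 counts. It ranged from 13.3 to 42.7 CPM in liver (median 30.8) and from 20.9 to 44.4 CPM in muscle (median 37.4). No liver or muscle library overlapped with a cerebrum library. The fitted difference was 4.11 ± 0.27 on the log2 scale (SE; 17.2-fold) for muscle against cerebrum and 3.95 ± 0.27 (15.4-fold) for liver against cerebrum, with adjusted p of 4.74e-17 and 2.32e-17 in edgeR's quasi-likelihood test over 15972 genes. By library totals the liver value was 3.03, with liver higher in 13 of the 14 fetuses. Liver and muscle overlapped, *ELF4* was higher in liver in 5 of the 14 fetuses, and their difference of -0.16 ± 0.22 (95% interval -0.61 to 0.29, adjusted p = 0.509) did not pass the test. By library totals *ELF4* was lower in liver than in muscle in all 14 fetuses, with a difference of -1.11 (adjusted p = 3.01e-04 by edgeR) that lay near the median of all genes on that scale.

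*ELK3* ranged from 22.2 to 42.7 CPM in muscle (median 35.1), against 1.45 to 4.60 CPM in cerebrum (median 2.19, 8 to 34 counts) and 1.24 to 12.3 CPM in liver (median 3.79, 5 to 67 counts). Every muscle library lay above every library of the other tissues. The differences were 3.75 ± 0.25 (SE; 13.4-fold) for muscle over cerebrum and -2.82 ± 0.24 for liver against muscle, with adjusted p of 7.01e-17 and 2.87e-14. Liver exceeded cerebrum by 0.93 ± 0.25 (1.90-fold, adjusted p = 8.44e-04), but the libraries overlapped and liver was higher in 9 of the 14 fetuses, and by library totals the value was -0.05 (adjusted p = 0.874). *ELK3* was also the most uneven of the members within liver, where its coefficient of variation was 70.8%, compared with 18.5% in muscle and 41.0% in cerebrum.

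The *ETS2* levels of the 3 tissues lay close together. They ranged from 23.1 to 39.3 CPM in liver (median 30.5), from 14.9 to 33.2 CPM in muscle (median 21.1) and from 11.3 to 27.6 CPM in cerebrum (median 14.9). The 3 ranges overlapped, and yet liver was higher than cerebrum in all 14 fetuses and higher than muscle in 12, and muscle was higher than cerebrum in 12. All 3 steps passed the test, with differences of 0.92 ± 0.13 for liver over cerebrum (SE; 1.89-fold, adjusted p = 5.26e-08), 0.50 ± 0.13 for liver over muscle (1.41-fold, adjusted p = 8.54e-04) and 0.42 ± 0.13 for muscle over cerebrum (1.34-fold, adjusted p = 0.00532). By library totals liver against cerebrum was -0.11 (adjusted p = 0.506 by edgeR, liver higher in 8 of 14 fetuses) and liver against muscle turned to -0.57 (adjusted p = 6.58e-04, liver higher in 1), so that the place of liver in this order is relative to the bulk of its genes. Muscle over cerebrum was 0.46 on that scale. The highest cerebrum libraries were CON 23 (27.6 CPM) and RES 1 (27.3 CPM), both well above the 18.4 CPM of the next. By library total CON 23 held 20.5 counts-per-million, below CON 54 and CON 68 (24.8 in each), while RES 1 was still the highest (28.6).

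Without RES 1, whose cerebrum library had the highest *ELF4* level, the *ELF4* differences from cerebrum were 4.55 for muscle and 4.43 for liver. The 4 endothelial and the 6 macrophage and leukocyte markers with a symbol, of 10 on each list, were all higher in liver and in muscle than in cerebrum. The 6 macrophage and leukocyte markers were also all higher in liver than in muscle. Of 15972 genes, 6147 were higher in liver and 5138 in muscle than in cerebrum, and 5842 were higher in liver than in muscle. By library totals 2 of the 4 endothelial markers were higher in liver than in cerebrum and 1 was lower, and 4 of the 6 macrophage and leukocyte markers were higher in liver than in muscle. Their part in the tissue levels of *ELF4* and *ELK3* was not tested.

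**Figure D1:**
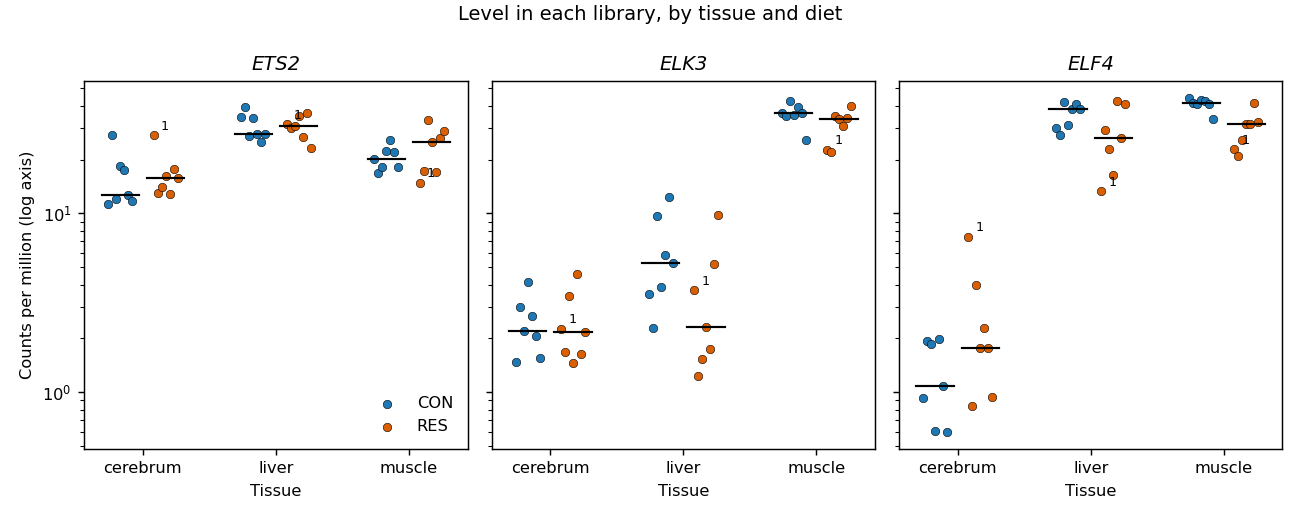
Levels in CPM (log axis) of *ETS2*, *ELK3* and *ELF4* in each of the 42 libraries, by tissue (horizontal axis) and diet (colour), 1 point per library. The *ELF4* points of cerebrum lie between 0.599 and 7.42 CPM, below all liver and muscle points, and the *ELK3* points of muscle (22.2 to 42.7 CPM) lie above all others.

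The rest of the family gave a setting for these values. Of 24 other ETS genes looked for, 14 had a symbol and counts, and 13 passed the filter on low counts. *ELF5*, an epithelial factor, did not pass and reached 2.79 CPM at most. Muscle exceeded cerebrum for 9 of the 13, cerebrum exceeded muscle for 2, and 2 did not pass the test. Of all 15972 genes 68.1% were called, 5138 higher in muscle and 5741 lower. By library totals 8 of the 13 were higher, 2 were lower and 3 did not pass. The median difference was 0.71 (0.74 without *SPIC*, which had no count in muscle), against -0.06 over all genes tested. Those higher in muscle included the endothelial and blood factors *ERG* (3.29 ± 0.35) and *FLI1* (2.64 ± 0.25), *ERF*, a repressor that ERK moves out of the nucleus (2.19 ± 0.12), and *ETV5*, which responds to fibroblast growth factors (2.19 ± 0.19). The fitted values of *ELF4* and *ELK3* lay above all of these, though their intervals overlapped that of *ERG*. Without RES 1, *ERG* (4.07 ± 0.24) lay between *ELF4* (4.55 ± 0.21) and *ELK3* (3.81 ± 0.26). *ELF2* (-0.53 ± 0.10) and the epithelial factor *ELF3* (-0.64 ± 0.25) were lower in muscle than in cerebrum.

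Liver exceeded cerebrum for 8 of the 13 genes and fell below it for 4 (median 1.12 against -0.17 over all genes), where 83.6% of all genes were called, 6147 higher and 7213 lower of 15972. It exceeded muscle for 3 and fell below it for 8 (median -0.87 against -0.21), where 82% were called, 5842 higher and 7263 lower. The numbers called are near these shares. *ELF1*, of the same subfamily as *ELF4*, was higher in liver than in cerebrum (3.24 ± 0.15) and higher in liver than in muscle (1.38 ± 0.14), with no overlap between the libraries of the 3 tissues. *SPIC*, a factor of red pulp macrophages, ranged from 3.47 to 8.44 CPM in liver, had no count in any muscle library and 1 count in 1 cerebrum library. Against a limit of 3 counts per library it was at least 5.36-fold higher in liver than in cerebrum and at least 8.08-fold higher than in muscle. *ELK1*, the other ternary complex factor measured, was lower in liver than in muscle (-0.87 ± 0.11), as *ELK3* was. Without RES 1, *GABPA* joined the genes higher in liver than in muscle, which made 4 genes, and the other counts did not move. By library totals 3 of the 13 genes were higher in liver than in cerebrum and 6 lower (median 0.09 against -1.20 over all genes), and 2 were higher in liver than in muscle and 10 lower (median -1.84 against -1.23). *ELF1* in liver over muscle was then 0.42 and did not pass.

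**Figure D2:**
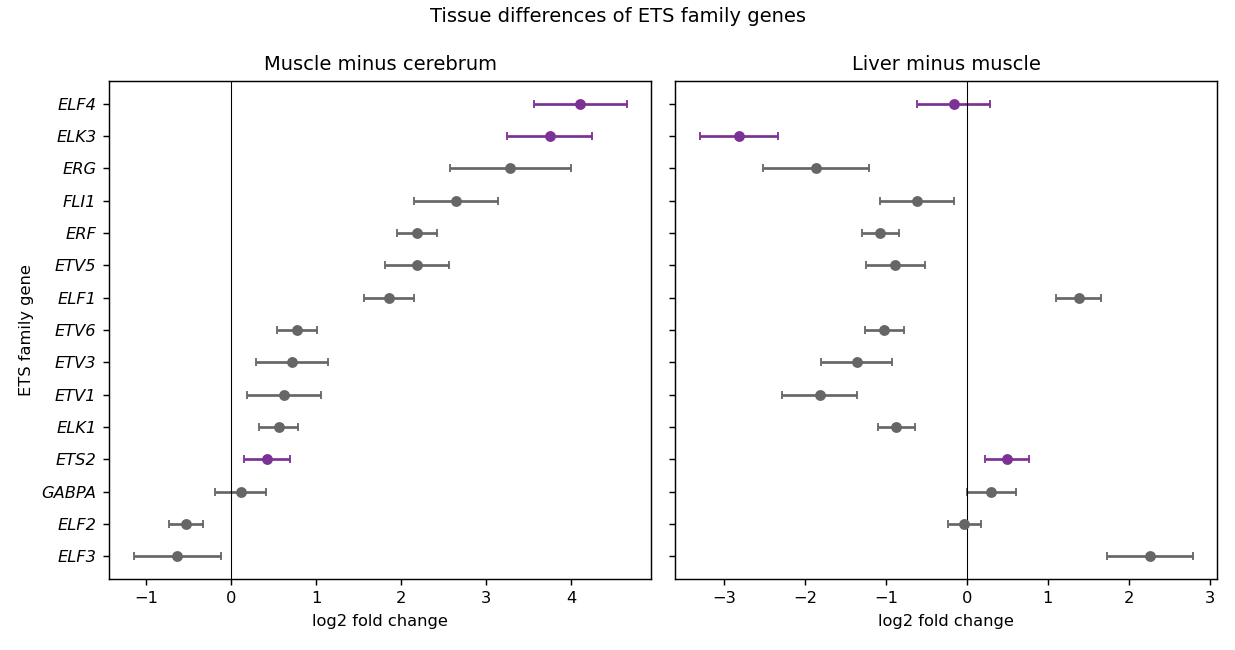
Fitted log2 fold changes (horizontal axis) of *ETS2*, *ELK3* and *ELF4* (purple) and 12 other ETS genes (grey) for muscle minus cerebrum and liver minus muscle, with 95% intervals, *SPIC* left out. *ELF4* (4.11) and *ELK3* (3.75) are at the top for muscle minus cerebrum with all 42 libraries, and *ELK3* (-2.82) is the lowest for liver minus muscle.

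All 5 feedback inhibitors of the ERK pathway with a symbol were higher in muscle than in cerebrum and higher in muscle than in liver. In these comparisons 68.1% and 82% of all genes were called. Of 15972 genes, 5138 were higher in muscle than in cerebrum and 7263 lower in liver than in muscle. For muscle over cerebrum these were *SPRY4* (3.80 ± 0.22), *SPRY1* (2.74 ± 0.20) and *SPRY2* (2.07 ± 0.16), which block receptor tyrosine kinase signalling, *SPRED2* (1.95 ± 0.21), which holds back RAF, and *DUSP6* (1.87 ± 0.18), the phosphatase of ERK. Their median was 2.07 for muscle over cerebrum and -2.58 for liver against muscle, against -0.06 and -0.21 over all genes. Between liver and cerebrum *SPRY1* was higher in liver, *SPRY2* and *SPRED2* were lower, and *DUSP6* and *SPRY4* did not pass (median -0.34); without RES 1, *DUSP6* joined *SPRY1*. By library totals 4 of the 5 were lower in liver than in cerebrum and *SPRY1* (-0.47) did not pass.

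Kinases of the cascade itself differed in their own ways. *ARAF*, a RAF kinase, was higher in muscle (1.65 ± 0.17) and in liver (2.41 ± 0.17) than in cerebrum, and higher in liver than in muscle (0.76 ± 0.16). *MAP2K1* and *MAP2K2* encode the kinases of ERK. *MAP2K1* was higher in muscle than in cerebrum (1.17 ± 0.15) and lower in liver than in muscle (-1.11 ± 0.15), and its value for liver against cerebrum (0.06 ± 0.15) did not pass. *MAP2K2* was higher in liver than in cerebrum (0.52 ± 0.16) and than in muscle (0.66 ± 0.16), and its value for muscle against cerebrum (-0.14 ± 0.16) did not pass. The liver directions of *MAP2K2* and that of *ARAF* against muscle turned by library totals, to -0.69 against cerebrum and -0.53 against muscle for *MAP2K2* and to -0.35 for *ARAF*. *MAP2K1* was then lower in liver than in cerebrum (-0.87, adjusted p = 6.36e-05 by edgeR).

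Among the partners and targets of the ternary complex, *SRF* (0.63 ± 0.10), *FOS* (2.28 ± 0.27) and *IER2* (1.08 ± 0.13) were higher in muscle than in cerebrum, and *MRTFB* did not pass (median of the 4 genes 0.86). *FOS* and *IER2* were higher in liver than in cerebrum and *MRTFB* was lower (median 0.50). *SRF*, *FOS* and *MRTFB* were lower in liver than in muscle (median -0.96). Of the PI3K genes, *PIK3R1* and *TSC2* were higher and *PIK3CA* lower in muscle than in cerebrum (median 0.19). *PIK3CA* and *TSC2* were lower in liver than in cerebrum (median -0.28), and these 2 and *PIK3R1* were lower in liver than in muscle (median -0.81). By library totals *FOS* (-0.03) and *IER2* (-0.01) did not pass between liver and cerebrum, *SRF* was lower in liver (-1.01, adjusted p = 3.99e-06 by edgeR) and the median of the 4 genes turned to -0.52. The 4 genes of each list were lower in liver than in muscle. On that scale *TSC2* (0.34, adjusted p = 0.0973 by edgeR) did not pass between muscle and cerebrum, and all 4 PI3K genes were lower in liver than in cerebrum.

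Between diets, 0% of genes were called in each tissue by edgeR at an adjusted p of 0.05. At an unadjusted p under 0.05 there were 386 genes in cerebrum, 3260 in liver and 1481 in muscle, and DESeq2 called 0, 78 and 14 genes. None of the other ETS, ERK, SRF or PI3K genes on the lists was called by edgeR in any tissue. The values of the 3 genes by diet follow, first those that chose them and then those that were tested.

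*ELF4* in muscle gave the most separated pair of diet groups. CON libraries ranged from 33.6 to 44.4 CPM (median 41.5) and RES libraries from 20.9 to 41.5 CPM (median 31.6). Of the 7 RES libraries 6 lay below all CON libraries, and RES 55 alone lay within them. The lowest were RES 6 (20.9 CPM) and RES 1 (22.9 CPM), and these also held the highest sums of muscle markers, whose part in the difference was not tested. The difference was -0.55 ± 0.11 on the log2 scale (SE), and it stayed between -0.63 and -0.48 with each fetus left out.

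*ELK3* in muscle ranged from 25.6 to 42.7 CPM in CON (median 36.6) and from 22.2 to 39.8 CPM in RES (median 33.8). The groups overlapped, with RES 6 (22.2 CPM) and RES 1 (22.7 CPM) below all CON libraries and CON 73 the lowest of its group. The difference was -0.26 ± 0.13 (SE). *ETS2* in muscle ranged from 16.9 to 25.8 CPM in CON (median 20.05) and from 14.9 to 33.2 CPM in RES (median 25.2). RES 25, RES 70 and RES 55 lay above all CON libraries and RES 1 below them, and the difference was 0.11 ± 0.16 (SE), or -0.05 without RES 25. These 3 libraries also held the highest sums of the 3 limb mesenchyme, cartilage and skin markers with a symbol (*PRRX1*, *SOX9* and *KRT5*). The sums were 123 CPM in RES 70, 89.5 in RES 25 and 87.1 in RES 55. RES 6 (24.1 CPM), RES 1 (28.1) and CON 73 (38.8) held the lowest, against a median of 66.0, and these were also the lowest libraries of their diets for *ELK3*. *PRRX1*, a factor of limb mesenchyme, was the most abundant of the 3 in all muscle libraries but RES 70, where it was *KRT5*, a keratin of skin. In RES 25 *PRRX1* was at 44.2 CPM, not above its muscle median of 44.8 CPM, and in RES 55 it was at 53.0 CPM. The part of these markers in the diet values was not tested. The RES libraries of *ETS2* spread more widely than the CON libraries, with SDs of 0.44 and 0.21 on the log2 CPM scale.

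*ETS2* in cerebrum ranged from 11.3 to 27.6 CPM in CON (median 12.7) and from 12.9 to 27.3 CPM in RES (median 15.7), with every RES library inside the CON range. Each group had 1 library far above its others, CON 23 and RES 1. The difference was 0.04 ± 0.26 (SE), and it was -0.16 without RES 1 and 0.27 without CON 23.

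*ELF4* in cerebrum ranged from 0.599 to 2.00 CPM in CON (median 1.09) and from 0.842 to 7.42 CPM in RES (median 1.77). RES 1, RES 25 (3.99 CPM) and RES 52 (2.30 CPM) lay above all CON libraries. The difference of 1.05 ± 0.50 (95% interval -0.01 to 2.12, adjusted p = 0.999 in edgeR's test) did not pass, and it was 0.57 without RES 1. That library also held the highest endothelial, macrophage and leukocyte, and erythroid sums, whose part in the difference was not tested. *ELK3* in cerebrum had a median of 2.21 CPM in CON and 2.16 CPM in RES, with a difference of 0.00 ± 0.35 (interval -0.75 to 0.75, adjusted p = 0.999 by edgeR).

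In liver *ELK3* ranged from 2.29 to 12.3 CPM in CON (median 5.27) and from 1.24 to 9.79 CPM in RES (median 2.33). RES 6, RES 25 and RES 52 lay below all CON libraries, with 5 to 10 counts each and mitochondrial shares of 35.6%, 12.5% and 9.61%. Over the 14 liver libraries r of *ELK3* with that share was -0.62 (-0.86 by library totals), and its part in the diet difference was not tested. The difference of -1.21 ± 0.47 (interval -2.21 to -0.21) had an unadjusted p of 0.0207 and an adjusted p of 0.185 in edgeR's test, and it was -0.72 when sex was left out of the model. By library totals it was -1.82 (adjusted p = 0.390 by edgeR). With a fetus left out it ran from -1.61 (without CON 68) to -0.92 (without CON 69).

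*ELF4* in liver ranged from 27.5 to 41.9 CPM in CON (median 38.4) and from 13.3 to 42.7 CPM in RES (median 26.4), with 4 RES libraries below and 1 above all CON libraries. The difference of -0.43 ± 0.24 (interval -0.95 to 0.09, adjusted p = 0.263 by edgeR) did not pass. The lowest RES libraries, RES 1 (13.3 CPM) and RES 33 (16.3 CPM), had mitochondrial shares of 67.7% and 30.5%. The difference was -0.31 without RES 1, -0.67 without RES 52 and -0.43 with the mitochondrial counts left out of all libraries. Under all other settings with 14 fetuses it ran from -0.68 to -0.36. *ETS2* in liver had medians of 27.9 CPM in CON and 30.7 CPM in RES and a difference of -0.01 ± 0.14 (interval -0.31 to 0.29, adjusted p = 0.965 by edgeR). By library totals the *ETS2* difference was -0.36 (adjusted p = 0.475 by edgeR), where the median of all genes was -0.37.

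**Figure D3:**
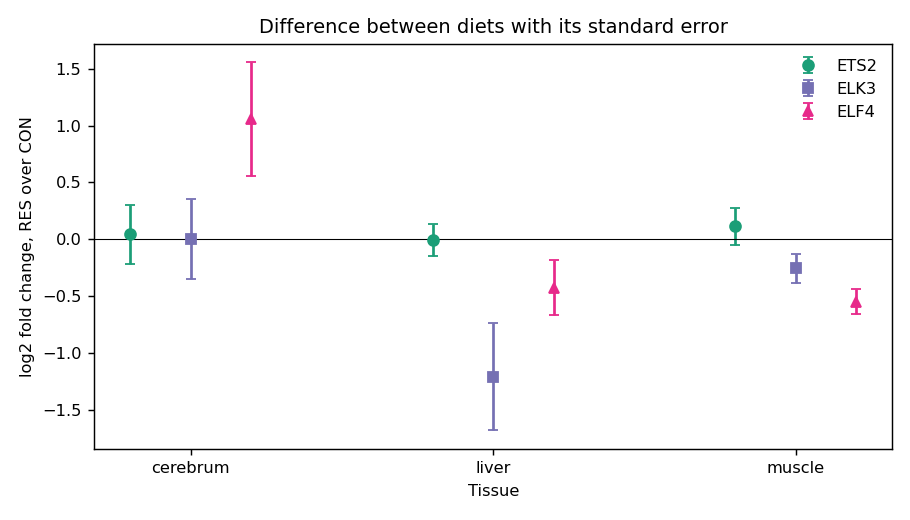
Log2 fold change of RES over CON (vertical axis) for *ETS2*, *ELK3* and *ELF4* in each tissue, with bars of 1 standard error, from 7 libraries per diet. The *ELF4* point in cerebrum (1.05) and the *ELK3* point in liver (-1.21) are the farthest from 0 and have the widest bars, while that of *ELF4* in muscle (-0.55) has the narrowest.

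Among the other ETS genes, medians of the diet differences were 0.06 in cerebrum (12 genes tested), -0.21 in liver (13) and -0.10 in muscle (12), against -0.03, -0.03 and -0.01 over all genes. *ELF3* in liver (1.08 ± 0.38, adjusted p = 0.18 by edgeR) and *ERG* in cerebrum (1.21 ± 0.65) had the largest values upward, and *ETV3* in liver (-0.96 ± 0.44) the largest downward. In cerebrum, RES 1 held 25.7 CPM of *ERG* against at most 5.98 CPM in the other libraries, and 29.8 CPM of *FLI1* against at most 12.1 CPM. *ETV6*, *ETV5*, *ERF* and *ELF1* were also highest there, and *ELK1*, *ETV1* and *GABPA* lowest. The 5 feedback inhibitors had medians of 0.28 in cerebrum, -0.48 in liver and -0.07 in muscle. Medians of the SRF genes were 0.08, -0.02 and 0.00, and those of the PI3K genes -0.13, -0.17 and -0.21. Without RES 1 the cerebrum medians were 0.17 for the feedback inhibitors and 0.05 for the SRF genes, and those of the other ETS genes (-0.08) and the PI3K genes (0.02) turned sign, against -0.04 over all genes. The liver medians were then -0.34 for the feedback inhibitors and -0.08 for the PI3K genes. That of the SRF genes turned sign to 0.03 in liver, against -0.02 over all genes, and was 0.06 in muscle.

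No difference between the 3 female and the 11 male fetuses passed edgeR's test for any of the 3 genes. Sex was called for 0.0066% of genes in cerebrum, 0.00739% in liver and 0.0134% in muscle. The female minus male difference of the X-linked *ELF4* was 0.33 ± 0.14 in muscle (SE; adjusted p = 0.490), 0.35 ± 0.29 in liver (adjusted p = 0.415) and -0.38 ± 0.62 in cerebrum (adjusted p = 0.971). *ELK3* in liver had the largest value of the members, 1.28 ± 0.53 (interval 0.15 to 2.40, adjusted p = 0.223). In muscle *ELK3* (0.29 ± 0.15) and *ETS2* (0.38 ± 0.19) had adjusted p of 0.506 and 0.504. With only 3 females a single fetus moved these values. *ELK3* in liver was 0.69 without RES 70 and 1.91 without CON 68, and *ELF4* was 0.11 in liver without RES 70 and 0.18 in muscle without RES 55.

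Relations of the members with each other and with library composition were computed within each tissue. Over 14 fetuses and 54 relations, chosen after the data had been seen, r and rho were computed with permutation p-values and adjusted over the 54. P-values are left out for the gene and tissue combinations that chose the genes. *ELF4* in liver was lower where the mitochondrial share of the counts was higher, with r = -0.79 (permutation p = 0.00077, adjusted p = 0.0208) and rho = -0.77 (adjusted permutation p = 0.0409). The relation was -0.79 without the 2 libraries farthest in mitochondrial share, -0.83 within CON and -0.81 within RES, and it was -0.88 by library totals and -0.82 by totals without the mitochondrial counts. *ELF4* was also lower where the endothelial sum was higher (r = -0.74, adjusted permutation p = 0.0252; rho = -0.76, 0.0409). It was -0.53 without the 2 libraries farthest in the endothelial sum, -0.59 within CON and -0.80 within RES, but it was 0.71 by library totals and -0.53 by totals without the mitochondrial counts, so that its direction depends on the scaling. In the same libraries the value for *ELK3* with the mitochondrial share was r = -0.62 and that for *ETS2* was r = 0.64, each with an adjusted permutation p of 0.0858. *ELF4* and *ETS2* in liver gave rho = -0.77 (adjusted permutation p = 0.0409) and r = -0.61 (0.0858), with r of -0.99 within CON and -0.69 within RES. The values of *ETS2* with the mitochondrial share and with *ELF4* turned to -0.70 and 0.83 by library totals, and were 0.04 and 0.11 by totals without the mitochondrial counts. No direction for *ETS2* in these liver relations holds under all 3 scalings.

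In muscle *ELF4* and *ELK3* had r = 0.75 and rho = 0.59, given as a description with no test. The value of r was 0.35 without the 2 libraries farthest in *ELK3*, RES 6 and RES 1. Within CON r was 0.83, and -0.27 without CON 73, the lowest CON library for both genes. Within RES it was 0.75, and -0.04 without RES 6 and RES 1. The values of *ETS2* with the sum of the muscle markers were r = -0.71 and rho = -0.73. Here r was -0.90 within RES and -0.09 within CON, so that the relation did not hold within CON. In cerebrum *ELF4* was higher where the erythroid sum was higher (r = 0.85, adjusted permutation p = 0.0130; rho = 0.65, 0.0947). It was 0.55 without the 2 farthest libraries, RES 1 and RES 25. The corresponding r with the endothelial and the macrophage and leukocyte sums were both 0.76 (adjusted permutation p = 0.0252), and 0.27 and 0.53 without the 2 farthest libraries.

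Across all 42 libraries, with tissue means removed, the genes most like each member were different genes. The points share library, depth and diet, and r is a description. For *ETS2* the highest r were with *KRT19*, a keratin of simple epithelia (0.80), *CBS*, an enzyme of transsulfuration (0.76), *CRABP1*, which binds retinoic acid (0.74), *TFAP2A*, a factor of ectoderm and neural crest (0.73), and *GLIS1* (0.72). In liver alone r with *TFAP2A* was 0.13, while with *CRABP1* it was 0.87. The named gene at the other end was *CAP2* (-0.69), which binds actin. For *ELK3* the closest named gene was *TIMP3*, an inhibitor of matrix metalloproteases (0.84; 0.70 in cerebrum, 0.92 in liver and 0.92 in muscle), and the farthest was *CHKB*, a choline kinase (-0.79). For *ELF4* the closest were *CD55*, which protects cells from complement (0.76), and *ADAM33*, a membrane protease (0.73). The other 14 genes at these ends had no symbol here. Without the 3 libraries of RES 1, *KRT19* (0.76), *CBS* (0.71), *CRABP1* (0.71) and *TFAP2A* (0.70) were among the 7 genes most like *ETS2*, *GLIS1* (0.66) fell to place 20 and *CAP2* (-0.64) to place 9. *TIMP3* was then the first for *ELK3* (0.89) and *CHKB* was at place 7 (-0.80). *CD55* (0.70) was at place 3 for *ELF4* and *ADAM33* (0.62) at place 22. Between *ELK3* and *ELF4* r was 0.38, and 0.21, 0.44 and 0.75 within cerebrum, liver and muscle. The pooled values of *ETS2* were 0.10 with *ELF4* (-0.12 without RES 1) and -0.02 with *ELK3*. Its values within tissues, as computed here, differed in sign. In cerebrum, liver and muscle they were 0.47, -0.74 and 0.17 with *ELF4*, and 0.24, -0.56 and 0.56 with *ELK3*. The r of -0.74 for *ETS2* with *ELF4* in liver used variance-stabilised values. On log2 CPM after TMM scaling the relations above gave r = -0.61 over the same 14 libraries. Which of these steps made the gap was not tested. The negative direction depends on the scaling, with r of 0.83 by library totals and 0.11 by totals without the mitochondrial counts.

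Differential co-expression compares the correlation of a gene pair among the 7 CON fetuses with that among the 7 RES fetuses, on variance-stabilised values. These counts belong to the contrast that chose the genes and are a description. Pairs past the threshold were 0.435% of all pairs in cerebrum, 0.00638% in liver and 0.0277% in muscle. *ETS2* took part in 267 pairs in cerebrum, or 2.2% of its own pairs, where the median gene had 16. *ELK3* took part in 50 pairs (0.418%) and *ELF4* in 39 (0.326%) in muscle, where the median gene had 1. By number of pairs they were at rank 41 and 72 of 11957 muscle genes, and *ETS2* was at rank 407 of 12120 cerebrum genes. The ranks moved with single fetuses. *ETS2* was at rank 48 without RES 1 and 87 without CON 23. *ELK3* was at rank 308 without RES 6 and 167 without CON 73, and *ELF4* at rank 573 without RES 6, 132 without CON 73 and 759 without CON 2.

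The remaining combinations held few pairs. *ELF4* had 23 and *ELK3* 2 in cerebrum, *ETS2* had 4 in muscle, and *ELK3* and *ELF4* had 0 in liver. The filter on variance removed *ETS2* from the liver genes, and without that filter it had 0 pairs there. *ELK3* and *ELF4* shared no partner in muscle, and no 2 members formed a pair. With only 50 and 39 partners among 11957 muscle genes, sharing none is no result about these genes. In cerebrum *ETS2* and *ELF4* shared 2 partners, 8.70% of those of *ELF4* and 0.749% of those of *ETS2*. Of the genes on the ETS, ERK, SRF and PI3K lists 1 was a partner, *ETV6*, a repressor needed in blood formation, whose r with *ELF4* in cerebrum was -0.82 in CON and 0.92 in RES.

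Pairs past the threshold had r of opposite sign in the 2 diets almost throughout, in 97.5% of all such pairs in cerebrum and 97.9% in muscle. With 7 fetuses per diet the threshold passes few pairs of like sign, so the change of sign follows largely from how pairs were called. Of the 267 pairs of *ETS2* in cerebrum, 186 were positive in CON and negative in RES (median r 0.84 and -0.95) and 73 the reverse (-0.78 and 0.94). Partners included *FNBP1L*, which acts on actin at membranes (0.89 in CON, -0.99 in RES). *ELK3* in muscle had 29 pairs that went from positive to negative and 20 the reverse, with *ATAD2B*, a bromodomain protein (-0.98 and 0.95), the Golgi sorting adaptor *GGA2* (0.97 and -0.93) and the phosphatase *PTP4A3* (0.92 and -0.97) at the top. *ELF4* in muscle had 16 and 23, led by the deubiquitinase *USP32* (-0.97 and 0.97), the lipid kinase *PIP4K2B* (-0.91 and 0.99) and *FAM199X* (-0.96 and 0.96). Those of *ELF4* in cerebrum included *NLRX1*, a mitochondrial regulator of innate immunity (-0.81 and 0.96), and *UTP4*, a factor of ribosome assembly (-0.93 and 0.86). In muscle *ETS2* was paired with *CYS1* (-0.76 and 0.98) and *PNCK* (-0.28 and -0.998).

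**Figure D4:**
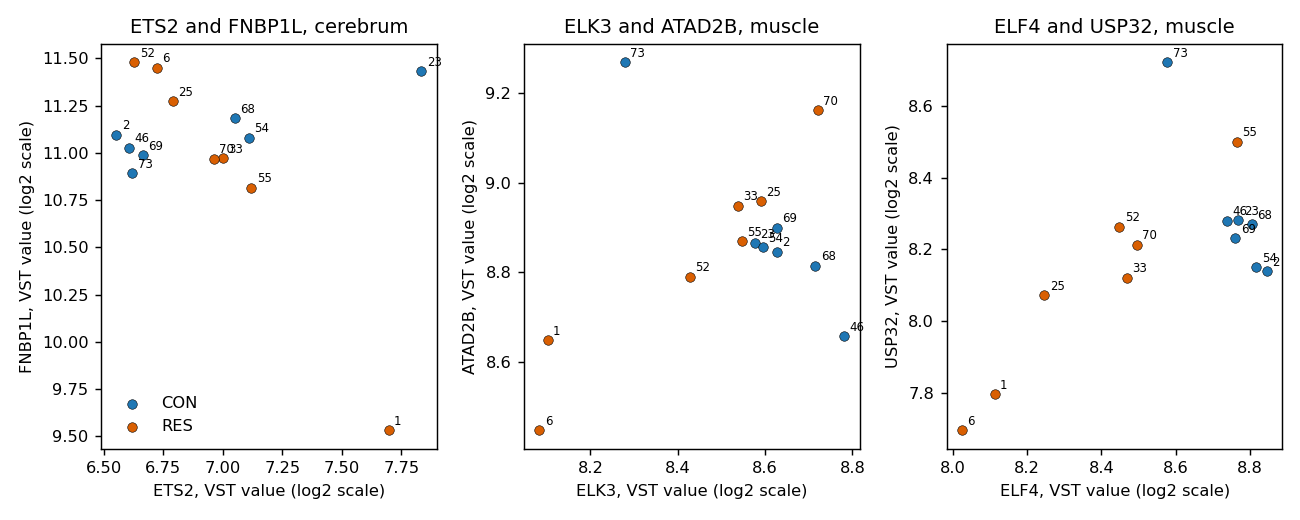
Variance-stabilised values (log2 scale) of a member (horizontal axis) and 1 of its leading named partners (vertical axis), 1 point per fetus with its number, CON in blue and RES in orange. CON 23 and RES 1 are far to the right in the *ETS2* panel, and CON 73, RES 1 and RES 6 are at the edges of both muscle panels.

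Single fetuses carried much of these counts. Without RES 1, *ETS2* had 16 pairs in cerebrum in place of 267, and all cerebrum pairs went from 319359 to 5794. It had 95 pairs without CON 69, 122 without CON 73, and between 145 and 157 without RES 6, RES 33 or RES 70. Over the same 267 pairs the median size of r among RES fetuses was 0.95 with RES 1 and 0.84 without it, and 259 pairs kept their sign. Without CON 23 the median size of r among CON fetuses went from 0.81 to 0.48, and 207 of the 267 kept their sign, while *ETS2* still had 215 pairs. For *ETS2* with *FNBP1L*, r among CON fetuses was 0.89 with CON 23 and 0.58 without it, and among RES fetuses it was -0.99 without RES 1. *ELF4* in cerebrum had 0 pairs without RES 1 and 101 without RES 25, in place of 23. Over the same 23 pairs the median size of r among RES fetuses was 0.97 with RES 1 and 0.92 without it, and all 23 kept their sign. RES 1 was the highest cerebrum library for both *ELF4* and *ETV6*.

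In muscle, *ELK3* had 7 pairs without CON 73, 10 without RES 6, 18 without RES 70, 76 without RES 25 and 88 without CON 2. All muscle pairs moved the same way, from 19784 to 6192, 11986, 13667, 33391 and 60031 in that order. Leaving out CON 23, CON 46, CON 54, CON 68, CON 69 or RES 33 gave between 28 and 32. *ELF4* had 8 without CON 73, 7 without RES 6, 25 without RES 33 and between 27 and 44 with any other fetus left out. Over the 50 pairs of *ELK3* the median size of r in CON went from 0.86 to 0.52 without CON 73, and 44 kept their sign. Over the 39 pairs of *ELF4* it went from 0.91 to 0.74, and 38 kept their sign. With the sex difference removed from the values, *ELK3* had 9 pairs in muscle, *ELF4* 0 and *ETS2* in cerebrum 511, while all pairs went from 19784 to 3926 in muscle and from 319359 to 769334 in cerebrum. *ETS2* was then at rank 565 and *ELK3* at rank 58. CON 73 was the lowest CON library for both genes in muscle and held 1297 CPM of muscle markers.

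**Figure D5:**
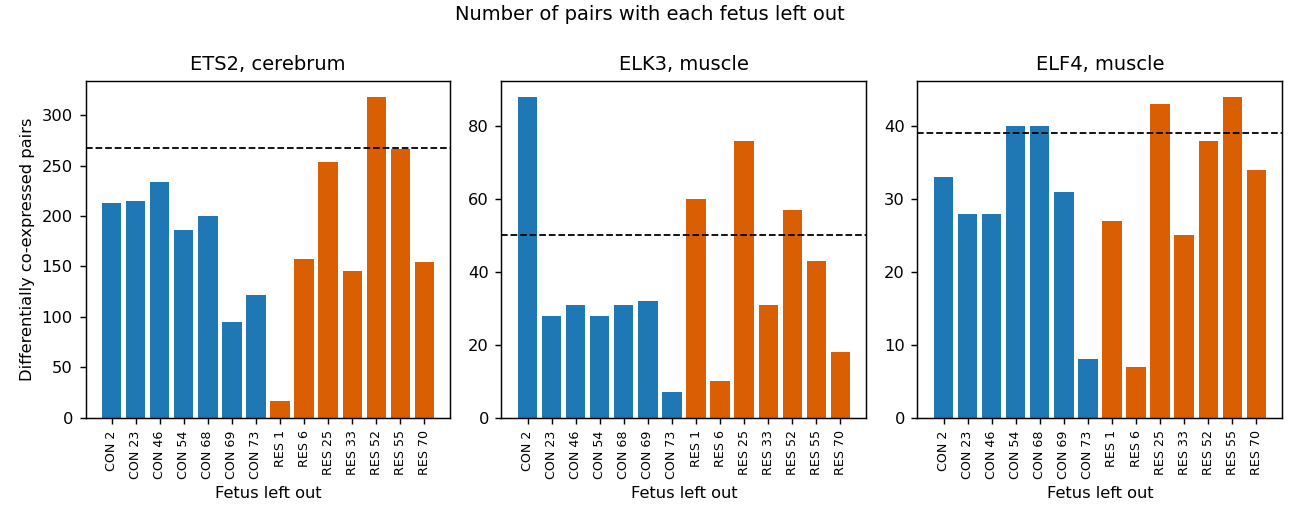
Number of differentially co-expressed pairs (vertical axis) of *ETS2* in cerebrum, *ELK3* in muscle and *ELF4* in muscle when the fetus on the horizontal axis is left out, CON in blue and RES in orange, with the number for all 14 fetuses as a dashed line (267, 50 and 39). The bars drop to 16 without RES 1, to 7 without CON 73 and to 7 without RES 6.

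The number of genes correlated with a member past an absolute r of 0.9 also differed between diets. *ETS2* in cerebrum had 213 such genes in CON and 2343 in RES, where the median gene had 302 and 448. *ELF4* there had 42 and 905, and *ELK3* 26 and 84. In muscle *ETS2* had 66 and 1119, *ELK3* 352 and 1874, and *ELF4* 538 and 741, where the median gene had 87 and 185. A number with a fetus left out rests on 6 points, and the median gene in CON then rose to between 181 and 218, so that it is read against that median and not against the other diet. For *ELF4* in CON it was 115 without CON 73, below the median gene at 181, and 737 to 998 with any other CON fetus left out. For *ELK3* in muscle it was 211 in CON without CON 73, where the median gene had 181. For *ETS2* in cerebrum it was 855 in CON without CON 54, above the median gene at 472, and 1510 in RES without RES 1, where the median gene had 291. For *ELF4* in cerebrum it was 319 in RES without RES 1. In liver the order was the other way, with 1270 in CON and 195 in RES for *ELF4* and 674 and 157 for *ELK3*, where the median gene had 505 and 542. With a RES fetus left out, *ELF4* in liver had 1378 in RES without RES 6, where the median gene had 812, and *ELK3* had 657 without RES 1, where the median gene had 822.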

How the data were processed

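The deposited table holds raw read counts per gene, which the authors made with FastQC 0.11.8, STAR 2.7.3a and its gene counting mode on ARS-UCD 1.2 with Ensembl annotation; which strand was counted is not given in the sources used here. No column lacked a sample (0 left out). Symbols came from the study's supplementary tables (5127 genes), and listed genes without a symbol there were left out whatever their counts. The members and lists were chosen with earlier results of these data known. Named genes were the members, all listed genes with a symbol, and the 5 most and 3 least alike genes over 42 libraries. The 3 leading co-expression partners of each member and tissue were also named. Some of these genes are not reported here.

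Genes under 1 CPM in at least 80% of the libraries were dropped, which left 15972 genes over all tissues, 15151 in cerebrum, 13527 in liver and 14947 in muscle. Levels and tests used library sizes scaled by TMM over all retained genes, and counts were tested with edgeR 4.0.16 (quasi-likelihood, Benjamini-Hochberg, 0.05), with sex and diet as covariates between tissues and sex between diets. Correlations of the members with each other and with library composition within each tissue used log2 CPM with a prior count of 1. The r values of the genes most and least like each member across all 42 libraries used variance-stabilised values. So did the r values between members given with them. For differential co-expression, DESeq2 1.42.0 gave variance-stabilised values, the 20% of genes with the lowest variance to mean ratio were dropped, and differences of Fisher-transformed r were adjusted over all pairs. With a fetus left out, values and filter were kept. The code was tested on simulated data. At these depths the lowest member counts were 5 per library. Intervals between diets and between sexes reflect the spread between fetuses. Those between tissues come from a fit of 42 libraries with no fetus term, which treats the 3 libraries of a fetus as independent.

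A replicate number is the same fetus in each tissue, so numbers pair the tissues by design. Deviations from group means of same-numbered libraries correlated with a median r of 0.031 between cerebrum and liver, 0.058 between cerebrum and muscle and 0.120 between liver and muscle (14 fetuses each). Alternatives were the fetus as a block, DESeq2's test and size factors, other filters, no sex term, no mitochondrial counts and each fetus left out. Library totals in place of TMM-scaled sizes were added after the data had been seen.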

Additional observations from a re-analysis of the deposited data

Results flagged for a closer look

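Outliers were sought in 18 groups of 7 libraries (3 genes, 3 tissues, 2 diets) by Dixon's ratio at the 95% level, and chance flags about 1 in 20 groups. In CON muscle, fetus 73 was far below the other 6 for *ELF4* (5.08 on the log2 CPM scale, ratio 0.73) and for *ELK3* (4.68, ratio 0.61). In RES cerebrum, fetus 1 was far above the other 6 for *ETS2* (4.78, ratio 0.57).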

How the results depend on the processing

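Tissue differences of the 3 genes kept their direction and their side of the threshold in 68 repeats under other settings, with 4 exceptions under 1 scaling, and in all 126 with a fetus left out. With library totals in place of TMM-scaled sizes, a scaling chosen after the data had been seen, *ETS2* was -0.11 for liver over cerebrum and -0.57 for liver over muscle and *ELK3* was -0.052 for liver over cerebrum, all reversed, and *ELF4* for liver over muscle was -1.11 and passed the threshold. This scaling moved the median of all genes by more than 1 on the log2 scale for both liver comparisons, and to -0.37 between diets in liver. In liver it also turned r of *ELF4* with *ETS2* to 0.83 (0.11 by totals without mitochondrial counts), of *ELF4* with the endothelial sum to 0.71 and of *ETS2* with the mitochondrial share to -0.70. Pairing by a replicate block (fetus) gave 0.94, 0.49 and 0.45 for *ETS2* (liver over cerebrum, liver over muscle, muscle over cerebrum), 0.88, -2.90 and 3.78 for *ELK3*, and 4.06, -0.16 and 4.22 for *ELF4*, and changed none of these calls. The order of the 3 genes by level per length was not run, since gene lengths of the files' annotation were not used here.

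No tested diet or sex difference of the 3 genes passed the threshold under any setting, but those near 0 changed sign. *ELK3* between diets in cerebrum was 0.00, and -0.010 with no filter on low counts, -0.019 with no sex covariate and -0.22 to 0.16 with a fetus left out. *ETS2* between diets in liver ran from -0.064 to 0.035 with a fetus left out, and between sexes in liver from -0.23 to 0.066 with a female left out. *ELF4* between sexes in cerebrum ran from -1.23 to 0.039. The stricter filter and DESeq2's independent filtering gave no value for *ELK3* between diets in liver. DESeq2's test called 78 genes between diets in liver and 14 in muscle where edgeR called 0, and between sexes 6 in cerebrum, 3 in liver and 10 in muscle where edgeR called 1, 1 and 2. With a female left out edgeR called 0 in cerebrum, 0 in liver and 0 to 2 in muscle. The cause was not tested. DESeq2's size factors moved the median of all genes by less than 0.1 on the log2 scale.

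Numbers of differentially co-expressed pairs also moved. With sex differences removed, *ETS2* had 511 in cerebrum and 0 in muscle, *ELK3* 5 in cerebrum and 9 in muscle, and *ELF4* 12 in cerebrum and 0 in muscle. With no filter on variance, *ELK3* had 1 in cerebrum and *ETS2* 2 in muscle. With a fetus left out, *ETS2* had 16 to 318 in cerebrum and 1 to 7 in muscle, *ELK3* 0 to 8 in cerebrum, 0 to 5 in liver and 7 to 88 in muscle, and *ELF4* 0 to 101 in cerebrum, 0 to 6 in liver and 7 to 44 in muscle. The number of genes past an absolute r of 0.9 moved by more than 1.5 times in 65 of 112 such repeats, and the number of pairs in 58 of 112. Leaving out a fetus also leaves fewer points behind each r. In cerebrum, 5 to 59 counts of *ELF4* and 8 to 34 of *ELK3* per library limit the precision of their values.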
